A study of Mus musculus with 2 samples.

Results

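Lymphatic endothelial cells were examined in 2 single-cell RNA-seq libraries of mouse colon. A cell barcode was taken as a lymphatic endothelial cell when it carried at least 1 UMI (unique molecular identifier, the count of 1 captured RNA molecule) of at least 2 of the 5 genes Lyve1, Prox1, Mmrn1, Flt4 and Reln and at least 1 of the endothelial genes Pecam1, Cdh5 and Egfl7. Barcodes with more than 1 UMI of C1qa, C1qb and C1qc together, or with any UMI of Cd79a or Cd3e, were left out, as were barcodes under 500 UMIs, under 200 genes or over 25% mitochondrial UMIs. The rule found 300 cells among 17858 kept barcodes of 18647 deposited, 113 in the wild-type library and 187 in the library labelled Elf-1 knockout. The rule uses measured RNA, so the levels of its genes describe how the cells were chosen and are not findings.

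The wild-type group was C57BL/6 mice and the other group Elf-1-/- mice of the same strain, both 8 to 10 weeks old and both treated with DSS (dextran sulfate sodium, which injures the colonic epithelium and causes colitis). Proximal colon, distal colon and rectum were dissociated together, and cells of 3 mice per group were pooled into 1 library on the Singleron GEXSCOPE platform. The labels give no dose or duration of DSS, no untreated colon and not the part of Elf1 that was deleted, and no map leads from cells back to mice. Each group is therefore 1 library: no test between genotypes is possible, cells are not replicates, and genotype, dissociation and library cannot be told apart. All intervals in parentheses are exact 95% intervals and cover counting error only.

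Lymphatic capillaries take up fluid, lipids and immune cells from tissue, and collecting vessels with valves carry them to lymph nodes. Their endothelium is specified by the transcription factor PROX1 and grows in response to VEGF-C through VEGFR3, which Flt4 encodes. It displays the chemokine CCL21, which attracts CCR7-bearing dendritic cells and T cells into the vessels, whereas blood endothelium recruits leukocytes out of the circulation through selectins and adhesion molecules.

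Elf1, an ETS family transcription factor and the gene targeted in the study, was counted in the cells of both libraries. The wild-type cells held 47 UMIs of Elf1 (145 CPM, which is UMIs scaled to a total of 1000000 over the cells) and the cells of the library labelled knockout 140 UMIs (175 CPM), a ratio of 1.21 (0.861 to 1.72). Blood endothelial cells gave 269 and 311 CPM. Reads were counted over the whole gene and the deleted part is not given, so this level does not check the label, and the library is called the library labelled knockout throughout.

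The 2 libraries held 32481613 and 39750319 UMIs, wild type first here and in every pair of values below. They shared 57 barcodes, none of them a lymphatic endothelial cell. The lymphatic cells held 323718 and 799263 UMIs in sum, with a median of 2528 UMIs per cell (530 to 11098) and 3266 (533 to 19777), and medians of 2.20% and 2.81% mitochondrial UMIs. The library labelled knockout held 1741 neutrophils, 3014 fibroblasts and 355 erythroid cells by marker gates, against 176, 1365 and 104 in the wild type. Epithelial and B cells went the other way, at 919 and 47 and at 2150 and 492 cells. RNA of other cell types was also counted in lymphatic barcodes. At least 2 of 6 epithelial markers were detected in 17 of 113 and 1 of 187 cells. At least 2 of 6 neutrophil markers were detected in 3 of 113 and 97 of 187 cells, at 114 and 3661 CPM in sum and at most 9 and 948 UMIs in a cell. At least 2 of 6 fibroblast markers were detected in 16 of 113 and 79 of 187 cells, at 1124 and 2753 CPM in sum and at most 151 and 552 UMIs in a cell, and no fibroblast marker in 64 and 23 cells. Erythroid markers summed to 445 and 7229 CPM, with up to 21 and 5089 UMIs in a cell. Platelet markers were all at 0 in the wild-type cells, and no cell held 2 or more B or T cell markers. Tagln in the wild type, Cnn1 in the other library and Cd79b in both were at 0. Cd79a and Cd3e were at 0 by the rule, which also makes other B and T cell markers less likely in these cells. Whether free RNA, doublets or RNA of the cells themselves gave these counts was not tested, so for the genes most in excess the level in fibroblasts or blood-cell classes is given too. For genes lower in the library labelled knockout, levels in epithelial cells are not given, and a share of RNA from other cells was likewise not tested.

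The label was checked on genes outside the rule. Ccl21a, the lymphatic CCL21 gene (chromosome 4, 42772860 to 42773993, GRCm38), was detected in 105 of 113 and 174 of 187 cells. Its level was 7191 and 3494 CPM in lymphatic cells against 4.72 and 3.06 CPM in blood endothelial cells, which were gated as cells with at least 2 of the 3 endothelial genes and no UMI of Lyve1, Prox1, Mmrn1 or Reln (110 and 136 cells). The next highest of 10 other gated classes gave 17.5 CPM in B cells and 8.64 CPM in T cells. Ccl21a has near-identical gene copies in the mouse genome, so how reads were shared among copies is uncertain. Pdpn, which encodes podoplanin, the membrane glycoprotein of lymphatic endothelium, was at 571 and 552 CPM, with fibroblasts at 501 and 790 CPM. Both markers were thus present in both libraries, Ccl21a well above every other gated class and Pdpn at a level like that of fibroblasts.

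**Figure D1:**
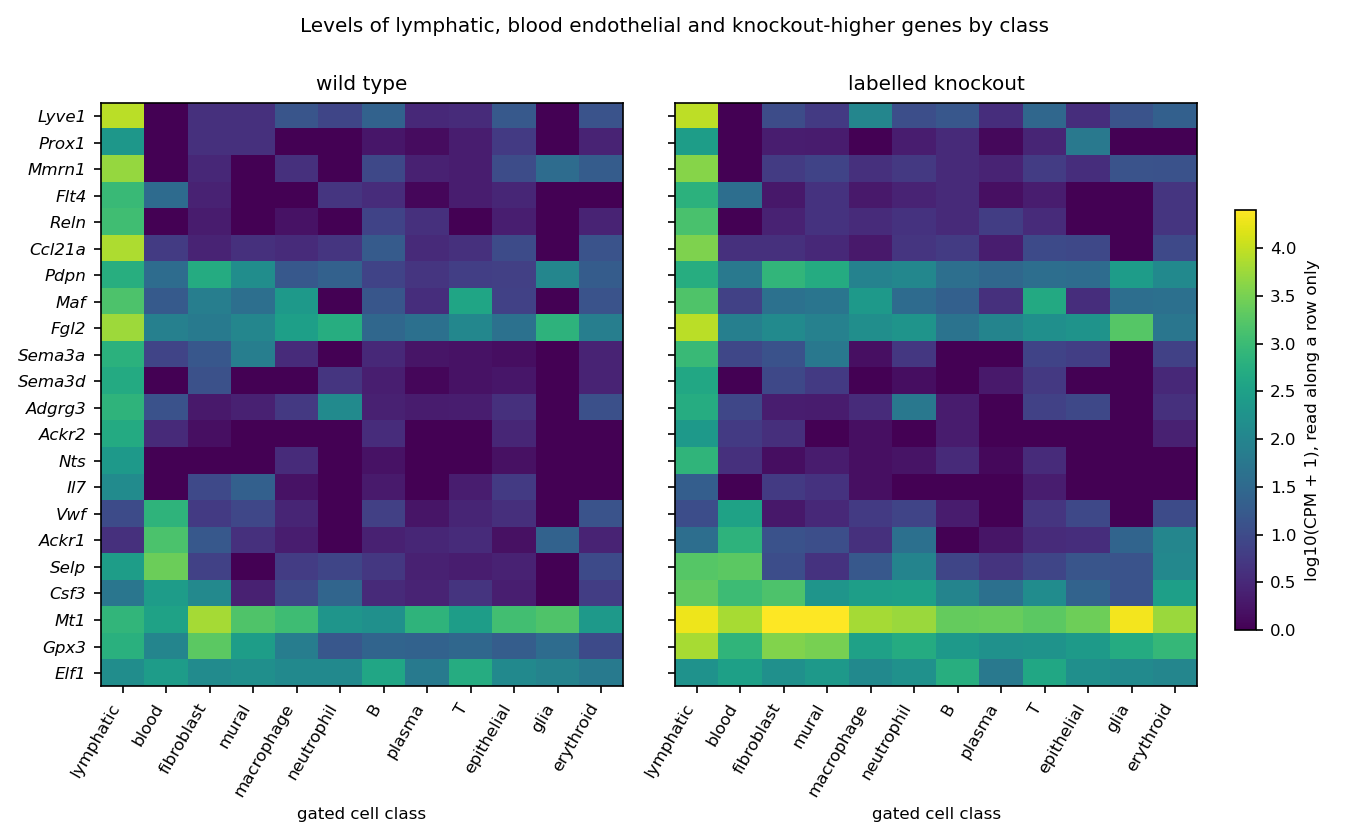
Level of lymphatic, blood endothelial and other named genes in each gated cell class of the 2 libraries, as log10 of (CPM + 1) of summed UMIs, with colours to be compared along a gene's row only. Ccl21a, at 7191 and 3494 CPM in lymphatic cells, reached at most 17.5 and 8.64 CPM in the other gated classes.

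Most cells passed the rule with a margin. All 5 markers were detected in 35 wild-type and 77 cells of the other library, 4 in 48 and 66, 3 in 21 and 33, and 2 in 9 and 11. The cells just inside the threshold, with 2 markers, carried Ccl21a in 7 of 9 and 4 of 11 cells. Those just outside it, which met every other condition but held 1 marker, carried Ccl21a in 1 of 25 and 1 of 56 cells.

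Among the rule's own genes, given as a description, Lyve1 (a hyaluronan receptor of lymphatic endothelium) had a median of 90.0 UMIs per 10000 in wild-type cells (0 to 184) and 102 in the other library (0.506 to 320). Mmrn1, a matrix glycoprotein gene, had medians of 51.1 and 39.8, and Reln, which encodes secreted reelin, 10.0 and 12.2. Prox1 was detected in 39.8% and 49.7% of cells, so its median was 0 in both. The per-cell ranges of the 2 libraries overlapped for each of these genes. Flt4 was at 970 and 658 CPM, a ratio of 0.678 (0.589 to 0.783), and Mmrn1 at 5026 and 3920 CPM, a ratio of 0.780 (0.734 to 0.829).

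**Figure D2:**
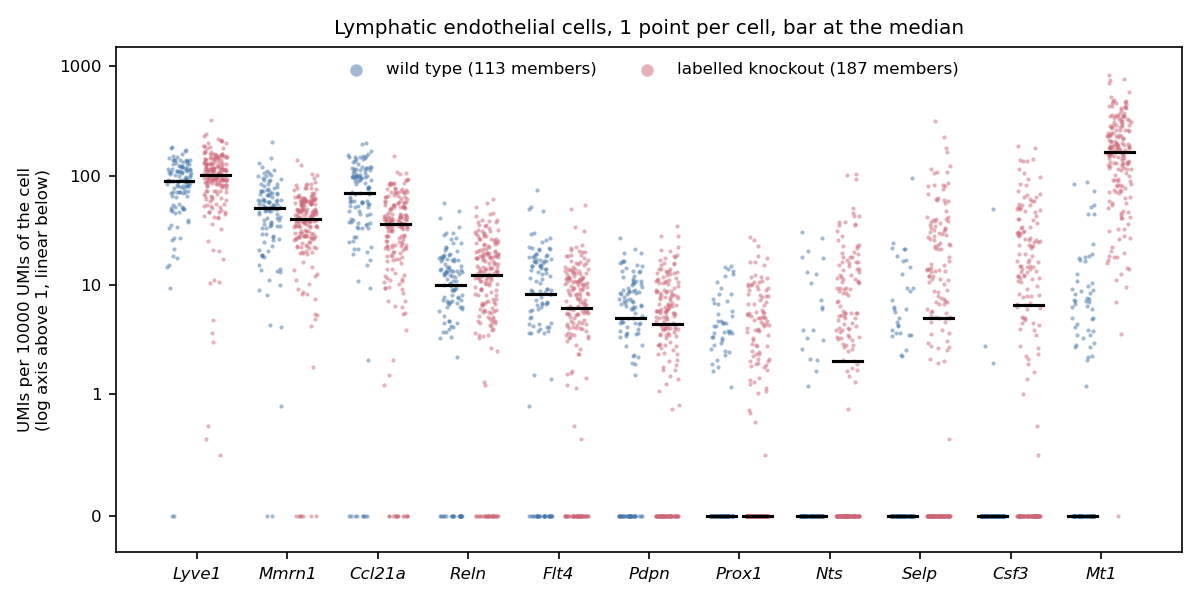
UMIs per 10000 of lymphatic genes, Selp, Csf3 and Mt1 in each lymphatic endothelial cell of the 2 libraries (axis logarithmic above 1 and linear below), 1 point per cell with a bar at the median. Lyve1 and Mmrn1 medians lie close (90.0 against 102 and 51.1 against 39.8), whereas the Ccl21a median is 69.6 in the wild type and 35.8 in the library labelled knockout.

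Against blood endothelial cells of the same library, 7565 genes outside the rules had at least 30 UMIs, and 506 of them (6.69%) were over 2-fold higher in lymphatic cells in both libraries, while 440 (5.82%) were over 2-fold lower in both. Both sets of cells were chosen by endothelial and lymphatic genes, so these are descriptions of how the chosen cells differ. The 12 genes furthest above blood endothelium in both libraries were led by Ccl21a, at 2328 against 2 UMIs in the wild type and 2793 against 2 in the library labelled knockout. Maf, a transcription factor gene, was counted 474 against 7 and 1238 against 4 times, ratios of 88.6 (42.7 to 222) and 253 (98.6 to 930). Fgl2, which encodes a fibrinogen-like protein, was 68.1-fold (48.8 to 98.0) and 110-fold (83.8 to 147) higher, with UMIs in 92.9% and 96.8% of lymphatic cells. Maf is not particular to lymphatic cells in this tissue, since T cells held it at 381 and 465 CPM against 1464 and 1549 CPM in the lymphatic cells.

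Guidance cue genes stood among them. Sema3a, a secreted semaphorin, was counted 209 against 3 and 778 against 5 times, ratios of 91.2 (30.8 to 446) and 127 (54.3 to 393). Sema3d had 161 and 352 UMIs in lymphatic cells and 0 in blood endothelial cells of either library. With 0 taken as 3 counts the ratios were 70.2 and 95.9, and the lower bounds of the exact intervals were 56.5 and 77.6. Ackr2, the atypical receptor that scavenges inflammatory CC chemokines, was counted 157 against 1 and 193 against 3 times, ratios of 205, with a lower bound of 36.3, and 52.6 (17.7 to 257). The other members of the 12 were the polarity gene Pard6g, the adhesion G protein-coupled receptor gene Adgrg3, and the matrix and protease genes Col23a1, Prelp, Adamts5 and Spp1. Of the 153 wild-type UMIs of Spp1, which encodes osteopontin, 83 lay in 1 cell.

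In the other direction, the 8 genes named for blood endothelium held few counts in lymphatic cells. Cd36, a fatty acid transporter of capillaries, had 0 and 7 UMIs in lymphatic cells against 139 and 655 in blood endothelial cells. With 0 taken as 3 it was 35.4-fold and 114-fold higher in blood endothelial cells. The upper bound of the wild-type lymphatic over blood ratio was 0.0352. Vwf, which encodes von Willebrand factor, had 3 and 8 against 312 and 223 UMIs, 79.5-fold and 34.1-fold higher in blood endothelium. Ackr1, the chemokine-binding receptor of venules, had 1 and 30 against 597 and 455 UMIs, and 28 of those 30 lay in 1 lymphatic barcode. Csf2rb, Bcam, Clu, Tspan7 and Exoc3l2 were 17.1-fold to 33.6-fold higher in blood endothelial cells across the libraries.

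**Figure D3:**
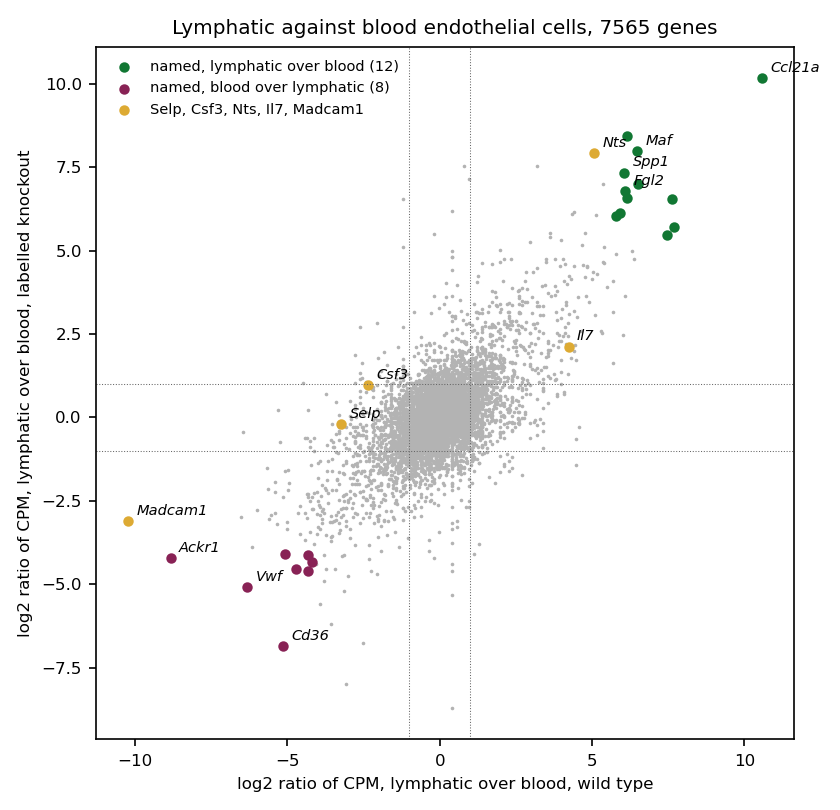
Log2 ratio of CPM in lymphatic over blood endothelial cells in the wild-type library (horizontal) and the library labelled knockout (vertical), 1 point per gene, with dotted lines at 2-fold, a count of 0 taken as 3 and the named genes coloured. Ccl21a, Maf and Fgl2 lie far on the lymphatic side in both libraries, Vwf and Cd36 on the blood side, and Selp at 0.106 of the blood level in the wild type and 0.869 in the other library.

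Of a list of 28 lymphatic identity genes outside the rule, 25 could be compared between the cell types, and 18 of these were over 2-fold higher in lymphatic cells in both libraries and 0 lower, with median log2 ratios of 3.93 and 3.25 against 0.07 and 0.01 over all genes. Of the blood endothelial list, 17 of 28 were over 2-fold lower in both and 0 higher. Some cells nevertheless carried RNA of both kinds: at least 2 of 5 blood endothelial markers were detected in 45.1% and 34.2% of lymphatic cells, against 92.7% and 86.0% of blood endothelial cells. At least 2 of the valve and collecting vessel genes Foxc2, Gata2, Gja4, Cldn11, Itga9 and Celsr1 were detected in 18.6% (11.9 to 27.0) and 20.3% (14.8 to 26.8) of lymphatic cells. The shares were 5.45% and 5.15% of blood endothelial cells, at like depths. Itga9, which also serves as a general lymphatic marker, was in 37 and 76 lymphatic cells and Foxc2 in 12 and 21. These shares are thus not shares of valve cells. At least 2 cycling markers were found in 0 of 113 and 0 of 187 cells, which allows shares of cells with such UMIs of up to 3.21% and 1.95%.

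The next comparison is between the libraries, within lymphatic cells. Of 5276 genes with at least 30 UMIs over the cells of both libraries, 309 (5.86%) were over 2-fold higher in the library labelled knockout and 443 (8.4%) over 2-fold lower. The median log2 ratio over all these genes was -0.14. With TMM scaling (trimmed mean of M values) it was 0.11 and the split 471 higher and 232 lower, so 67.0% of such genes were higher in place of 41.1%. Genes and lists whose log2 ratio lies within that shift are given without a direction. Each count of list genes over 2-fold is to be read beside 5.86% higher and 8.4% lower among all compared genes.

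The genes most in excess in the library labelled knockout encode a granulocyte growth factor, metal-binding proteins, an extracellular peroxidase and P-selectin. Csf3 (chromosome 11, 98701263 to 98703629), which encodes the neutrophil growth factor G-CSF, had 17 UMIs in 3 of 113 wild-type cells, 15 of them in 1 cell, and 1659 UMIs in 118 of 187 cells of the other library. That is 52.5 and 2076 CPM, a ratio of 39.5 (24.6 to 68.0). With every cell thinned to 1000 UMIs, which left out 14 and 15 shallower cells, 1 of 99 (1.01%) and 86 of 172 (50%) lymphatic cells kept a UMI of Csf3. In the same library neutrophils kept it in 10.8%, T cells in 7.21% and B cells in 5.37%, the background against which the lymphatic share is to be read. Blood endothelial cells gave 269 and 1054 CPM and fibroblasts 115 and 1492 CPM, so the excess was not limited to lymphatic cells.

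Selp (chromosome 1, 164115264 to 164150026), which encodes the leukocyte-rolling receptor P-selectin, was at 278 CPM in wild-type cells (90 UMIs in 31 cells) and 1722 CPM in the other library (1376 UMIs in 111 cells), a ratio of 6.19 (5.0 to 7.75). Blood endothelial cells differed the other way, at 2617 and 1980 CPM with a ratio of 0.757 (0.698 to 0.821). As a result the lymphatic level was 0.106 of the blood endothelial level in the wild type and 0.869 of it in the library labelled knockout. The highest blood-cell class in that library was at 111 CPM. After thinning, Selp was detected in 18.2% and 41.9% of lymphatic cells and 31.3% and 25.8% of blood endothelial cells.

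In the library labelled knockout, Ccl21a was at 3429 CPM in the 111 cells with a Selp UMI and 3626 CPM in the 76 without one. Vwf had 4 UMIs in each set. At least 2 blood endothelial markers were found in 46 and 18 of these cells. The sets differ in depth, with medians of 3975 and 2351 UMIs, and after thinning those markers were found in 6 of 105 and 6 of 67 cells. Csf3 was at 2593 CPM in the cells with Selp and 1042 CPM in those without.

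The metallothioneins, small proteins that bind zinc and copper, gave the largest counts among the genes named as higher. Mt1 had 251 UMIs in 51 cells and 15386 UMIs in 186 cells, 775 and 19250.2 CPM, a ratio of 24.8 (21.9 to 28.2). Mt2 was at 405 and 6831 CPM, a ratio of 16.9 (14.2 to 20.2). Blood endothelial ratios were 19.5 (16.5 to 23.2) and 12.6 (10.2 to 15.7), and fibroblasts held Mt1 at 6446 and 38012 CPM. After thinning, Mt1 was detected in 27.3% and 97.7% of lymphatic cells, but also in 72.1% of B cells and 71.5% of T cells of the library labelled knockout, so the share of positive cells is not readable there, and the level is: the highest blood-cell class was at 5565 CPM. The 250 bases before each start site are shown because both genes were high together and metallothionein promoters are known for metal response elements, with matches to the core TGCACNC or TGCGCNC on either strand in capitals (RefSeq, GRCm38.p6).
Mt1, chr8:94178839-94179088, plus strand: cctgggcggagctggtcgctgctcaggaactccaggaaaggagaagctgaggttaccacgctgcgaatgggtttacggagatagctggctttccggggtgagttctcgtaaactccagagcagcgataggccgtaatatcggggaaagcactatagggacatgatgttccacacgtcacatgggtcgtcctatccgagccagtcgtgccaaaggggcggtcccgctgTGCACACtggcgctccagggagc
Mt2, chr8:94172368-94172617, plus strand: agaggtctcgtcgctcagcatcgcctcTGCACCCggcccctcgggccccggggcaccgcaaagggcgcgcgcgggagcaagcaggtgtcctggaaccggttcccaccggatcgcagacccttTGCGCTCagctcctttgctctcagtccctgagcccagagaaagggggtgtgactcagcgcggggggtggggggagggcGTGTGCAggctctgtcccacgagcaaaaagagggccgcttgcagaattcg
The core was found 1 time before Mt1, at -23 from the start site, and 3 times before Mt2, at -223, -128 and -50. Only the 250 bases before the annotated start were searched, so matches elsewhere near either gene were not counted. It is a common string: windows of 34.4% of the compared genes in the table and 23.8% of all genes hold it, and a match is a description of letters, not of a site in use.

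Gpx3, which encodes a secreted glutathione peroxidase, was at 630 and 6621 CPM, a ratio of 10.5 (9.13 to 12.1), with 101 and 758 CPM in blood endothelial cells, 1925 and 3736 CPM in fibroblasts and at most 867 CPM in a blood-cell class of the library labelled knockout. After thinning it was detected in 29.3% and 90.7% of lymphatic cells and in 13.5% of neutrophils of the library labelled knockout. Of 19 compared genes of the metallothionein, iron and oxidative stress list, 6 were over 2-fold higher and 0 lower: besides Mt1, Mt2 and Gpx3 these were Sod2 (mitochondrial superoxide dismutase, 259 and 980 CPM), Gclm (glutathione synthesis) and Hmox1 (haem breakdown, 52.5 and 129 CPM). The list's median log2 ratio was 0.05, and its summed level was 2.92 times higher (2.85 to 3.0), the sum being carried by few genes.

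Another 6 genes named for excess in the library labelled knockout were, but for Ms4a4d, at or near the level of a blood-cell class in that library. Cxcl1, a neutrophil-attracting chemokine, was at 108 and 892 CPM with neutrophils at 884 CPM. Il11, an IL-6 family cytokine, was at 21.6 and 274 CPM with neutrophils at 242 CPM, and Mmp3 (stromelysin) at 30.9 and 671 CPM with erythroid cells at 1473 CPM and 196 of its 536 UMIs in 1 cell. The hyaluronidase gene Cemip reached 140 CPM with erythroid cells at 147, and Serpina3f, a serine protease inhibitor gene of a multigene cluster, 154 CPM with plasma cells at 164. Ms4a4d had 2 and 84 UMIs, 6.18 and 105 CPM, with fibroblasts at 286 and 168 CPM. At most 21.0 CPM of it was held by a blood-cell class of the library labelled knockout. Fibroblasts of the library labelled knockout held more of the other genes than those blood-cell classes. They held Cxcl1 at 3280, Il11 at 1943, Mmp3 at 6941, Cemip at 936 and Serpina3f at 347 CPM. For the genes of these 6 other than Ms4a4d, the lymphatic level cannot be told apart from RNA of other cells, and for Ms4a4d this was not tested.

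Among the 64 and 23 cells with no fibroblast marker UMI, Csf3 had 0 and 102 UMIs, Mt1 was at 527 and 16078 CPM, Gpx3 at 642 and 6512 CPM and Selp at 284 and 1487 CPM. In that set Cxcl1 was at 122 and 388 CPM, a smaller difference than over all cells. Il11 was at 20.3 and 16.2 CPM, Cemip had 0 and 1 UMI, Ms4a4d had 0 and 4 UMIs and Mmp3 was at 33.8 and 145 CPM. Csf3, Mt1, Gpx3 and Selp were thus higher also in cells without counted fibroblast RNA, whereas the counts of Il11, Cemip and Ms4a4d there were too low to be read.

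**Figure D4:**
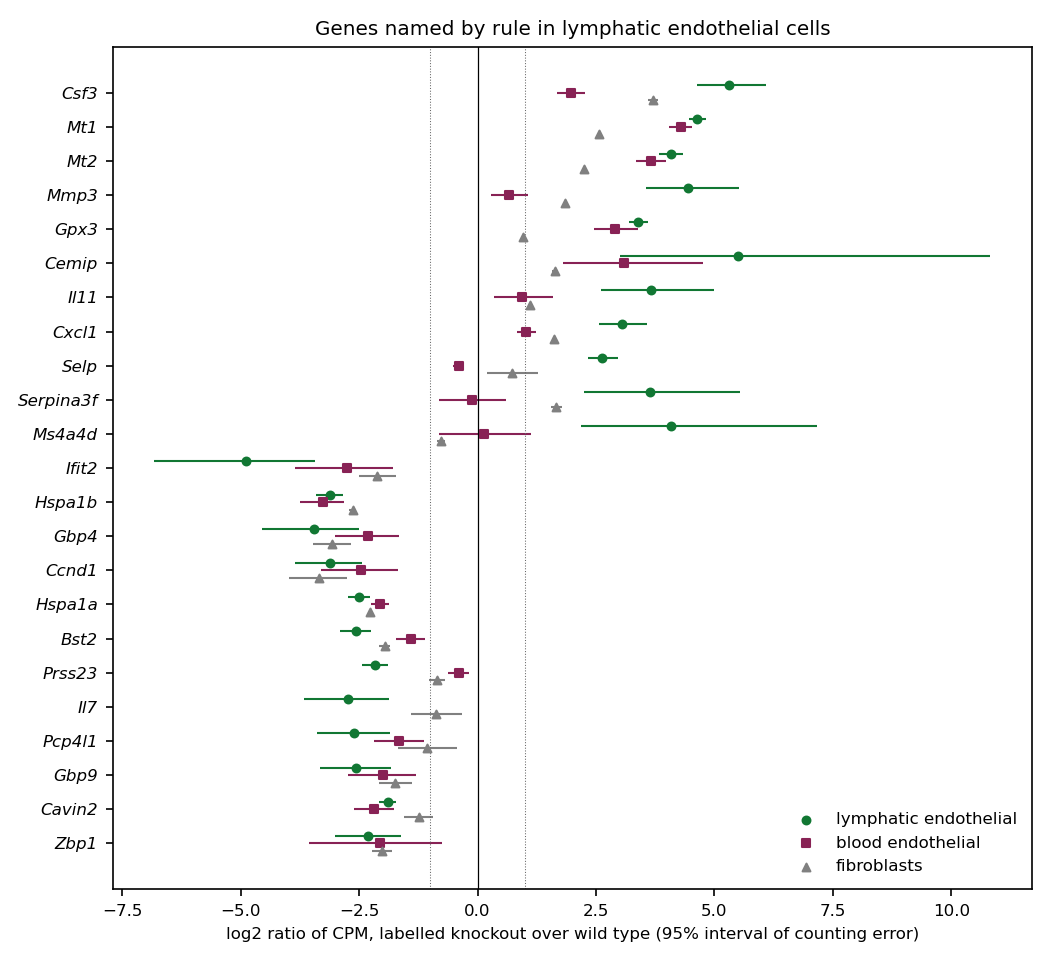
Log2 ratio of CPM, library labelled knockout over wild type, for genes named as higher or lower in lymphatic endothelial cells (circles), with blood endothelial cells (squares), fibroblasts (triangles) and bars for exact 95% counting intervals. Selp lies above 0 in lymphatic cells and below 0 in blood endothelial cells (ratios 6.19 and 0.757), whereas Csf3, Mt1 and Gpx3 lie above 0 in both.

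Inflammatory and chemokine genes were unevenly placed. Of 30 compared genes of the NF-kB and acute inflammation list, 10 were over 2-fold higher and 1, Ptx3, over 2-fold lower, with a median log2 ratio of 0.62 (0.19 in blood endothelial cells) and a summed level 2.75 times higher (2.65 to 2.85). In the cells with no fibroblast marker UMI 14 of the 30 were lower, and the median over the 16 that reached 30 UMIs there was 0.19. Lcn2, an iron-siderophore binding protein gene, was at 3379 and 15552 CPM, a ratio of 4.6 (4.33 to 4.90), with neutrophils, which also make it, at 3794 and 7124 CPM. Il6 was at 46.3 and 189 CPM and Birc3, an inhibitor of apoptosis induced by NF-kB, at 27.8 and 121 CPM, with B cells at 206 CPM. The feedback regulators Nfkbia (0.985, 0.893 to 1.09) and Tnfaip3 (0.905, 0.636 to 1.31) had ratios near 1. Saa3 was at 1069 and 2768 CPM, but neutrophils of the library labelled knockout held 6921 CPM and 311 of its 346 wild-type UMIs lay in 1 cell.

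Of 12 compared chemokines and atypical receptors, 6 were over 2-fold higher and 2, Ccl21a and Ackr2, over 2-fold lower. The median log2 ratio was 1.11, while the summed level was lower (ratio 0.831, 0.796 to 0.868), with Ccl21a at 7191 of 9419 CPM and 3494 of 7826 CPM of it. Per cell, Ccl21a had a median of 69.6 UMIs per 10000 in the wild type (0 to 201) and 35.8 in the library labelled knockout (0 to 152), ranges that overlap. The summed CPM ratio was 0.486 (0.460 to 0.514), 2.06-fold lower, and after thinning the gene was detected in 93.9% and 85.5% of cells. In the cells with no fibroblast marker UMI the log2 ratio of Ccl21a was -0.44 in place of -1.04. Ccl2 and Ccl7, monocyte attractants, were at 195 and 694 CPM and at 64.9 and 283 CPM, with neutrophils of the library labelled knockout at 501 and 138 CPM. In the set with no fibroblast marker UMI the list's median log2 ratio was -0.08 over the same 12 genes, which gives no direction. Over the 6 of them that reached 30 UMIs there it was -0.61.

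Genes through which lymphatic vessels deal with immune cells and cues differed in both directions. Il7, the lymphocyte survival cytokine that lymphatic endothelium makes, had 43 UMIs in 28 wild-type cells and 16 UMIs in 13 cells of the other library, 133 and 20.0 CPM, 6.64-fold lower (ratio 0.151, 0.0792 to 0.273), and 0 UMIs in blood endothelial cells of either. After thinning it was detected in 13.1% and 1.74% of cells. Ackr2 was at 485 and 241 CPM (ratio 0.498, 0.401 to 0.619). Nts, which encodes neurotensin, a peptide that lymphatic endothelium also makes, was higher: 77 UMIs in 20 cells against 595 UMIs in 101 cells, 238 and 744 CPM, a ratio of 3.13 (2.47 to 4.02), with 0 and 3.06 CPM in blood endothelial cells and at most 2.50 CPM in a blood-cell class. Of the 16 compared adhesion and trafficking genes, 5 were over 2-fold higher and 4 over 2-fold lower, with a median log2 ratio of 0.29. Cd200, a ligand that restrains myeloid cells, was at 636 and 1514 CPM (ratio 2.38, 2.05 to 2.77), and Mrc1 (mannose receptor), Icam2 and the sphingosine-1-phosphate transporter gene Spns2 were lower with Il7. Madcam1, the gut-homing addressin, had 1 and 43 UMIs, 40 of which lay in 1 cell.

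Interferon-induced genes were mostly lower in the library labelled knockout. Of 21 compared members, 17 were over 2-fold lower and 1, Ifitm1, over 2-fold higher, against 8.4% and 5.86% of all genes, and the intervals of 18 lay below 1. The median log2 ratio was -1.70, with -1.81 in blood endothelial cells. It was smaller where less RNA of other types was counted: over the same 21 genes it was -1.06 in cells with no fibroblast marker UMI and -1.04 without cells carrying 2 markers of another class, and over the 8 and 9 of them that reached 30 UMIs there, -0.75 and -0.24. Those 8 and 9 include abundant Ifitm genes. Without Ifitm1, Ifitm2 and Ifitm3, 6 genes reached 30 UMIs in each set, with medians of -1.42 and -0.81. The medians over genes at 30 UMIs thus depend on which genes passed that limit. Bst2, which encodes the antiviral membrane protein tetherin, had 280 and 116 UMIs, 865 and 145 CPM, 5.96-fold lower (ratio 0.168, 0.134 to 0.209), and was detected after thinning in 50.5% and 11% of cells. The GTPase genes Iigp1 (602 and 181 CPM), Gbp7 (281 and 78.8 CPM) and Irgm1 (133 and 31.3 CPM) and the transcription factor genes Irf1 (142 and 55.1 CPM) and Irf7 (64.9 and 20.0 CPM) were lower too. The lowest ratios were those of Ifit2, with 48 and 4 UMIs of which 31 of the 48 lay in 1 cell, and Gbp4, with 49 and 11 UMIs. Gbp4 and Gbp9 overlap on chromosome 5, so their reads may be shared, and Zbp1, a nucleic acid sensor gene, was 4.94-fold lower.

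The 3 Ifitm genes differed from the rest. Ifitm3 was at 8785 and 8773 CPM (ratio 0.999, 0.956 to 1.04), Ifitm2 had a ratio of 1.98 (1.88 to 2.08) and Ifitm1 of 2.32 (1.92 to 2.83), and their counts are large. The sum over all 21 genes had a ratio of 1.16 (1.13 to 1.19), within the shift between scalings. The sum is therefore given no direction, unlike the median log2 ratio of -1.70. Without these 3, a split chosen after the values were seen, the other 18 genes summed to 4093 and 1144 CPM, 3.58-fold lower, and 18 of 18 were lower. The difference was smaller in cells with less RNA of other types: 2.26-fold in those with no fibroblast marker UMI and 2.08-fold without cells carrying 2 markers of another class, with 18 of 18 lower in each.

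The windows of 3 of these genes, those with the lowest ratios among the ones that hold the core, are shown because the members were lower together and such genes are known for interferon-stimulated response elements, with matches to its core (GAAA, any 2 bases, GAAA) on either strand in capitals and each sequence written along its gene's own strand (RefSeq, GRCm38.p6).
Bst2, chr8:71537473-71537722, minus strand: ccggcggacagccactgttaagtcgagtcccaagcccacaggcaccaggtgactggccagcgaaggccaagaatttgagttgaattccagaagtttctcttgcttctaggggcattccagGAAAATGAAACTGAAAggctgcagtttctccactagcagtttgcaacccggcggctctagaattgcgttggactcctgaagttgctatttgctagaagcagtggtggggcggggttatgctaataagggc
Irgm1, chr11:48871421-48871670, minus strand: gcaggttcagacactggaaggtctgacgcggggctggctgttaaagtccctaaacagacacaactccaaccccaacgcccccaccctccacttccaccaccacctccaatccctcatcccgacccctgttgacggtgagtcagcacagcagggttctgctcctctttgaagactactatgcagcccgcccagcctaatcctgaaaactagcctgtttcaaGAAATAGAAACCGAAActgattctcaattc
Gbp7, chr3:142530086-142530335, plus strand: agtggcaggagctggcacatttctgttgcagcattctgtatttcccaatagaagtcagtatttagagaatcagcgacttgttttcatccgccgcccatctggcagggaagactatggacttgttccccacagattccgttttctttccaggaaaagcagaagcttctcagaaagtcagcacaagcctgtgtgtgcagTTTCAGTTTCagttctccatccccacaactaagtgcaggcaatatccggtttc
Bst2 and Irgm1 hold 2 overlapping matches each, at -130 and -124 and at -30 and -24, and Gbp7 holds 1, at -53 on the opposite strand. Of the 17 compared interferon genes with a window in the table, 10 (58.8%) held the core, against 3.55% of all compared genes and 3.46% of all genes in the table. Genes were put on this list as interferon-induced, so that share describes the list. Among all compared genes with a window, the core was found in 21 of 342 (6.14%) of those over 2-fold lower and 8 of 221 (3.62%) of those over 2-fold higher. The lower set includes genes of the interferon list that hold the core, Bst2, Irgm1 and Gbp7 among them. Its share is thus not separate from the list, and no excess is read from it.

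Antigen presentation genes lay on the same side. All 15 compared MHC class I and peptide loading genes had ratios below 1, 6 of them over 2-fold lower, with 14 intervals below 1 and a median log2 ratio of -0.86 (-0.89 in blood endothelial cells). The proteasome subunit gene Psmb9 was at 263 and 72.6 CPM (ratio 0.276, 0.194 to 0.390) and H2-T23 at 1189 and 548 CPM, whereas the abundant B2m (0.765, 0.729 to 0.802), H2-K1 (0.698, 0.651 to 0.749) and H2-D1 (0.826, 0.787 to 0.867) differed less. The H2 genes are near-identical in part, so reads may be shared among them. In sum the list was 1.37-fold lower. Of 4 compared class II genes 3 were over 2-fold lower, but only 1 stood 3 times above the lowest level among the other gated classes, so these counts are not read as RNA of lymphatic cells.

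Of 16 compared heat shock chaperone genes, 8 were over 2-fold lower and 0 higher, against 8.4% and 5.86% of all compared genes. The list's median log2 ratio was -0.94 (-0.60 in blood endothelial cells), and its summed level was 9252 and 4429 CPM, 2.09-fold lower. Hspa1a and Hspa1b, inducible HSP70 genes whose near-identical sequences may share reads, were 5.64-fold and 8.70-fold lower. Wild-type B cells held them at 3896 and 1530 CPM, against 1588 and 1415 CPM in lymphatic cells, and after thinning Hspa1a was detected in 60.6% and 8.18% of B cells and 56.3% and 8.02% of T cells, against 61.6% and 16.3% of lymphatic cells. The difference was therefore not limited to lymphatic cells, and their level cannot be told apart from RNA of other cells. Hsp90aa1 was at 516 and 238 CPM (ratio 0.461, 0.372 to 0.571), and the endoplasmic reticulum chaperone gene Hspa5 had a ratio of 0.886 (0.772 to 1.02). Immediate early genes, which like heat shock genes are known to respond to tissue dissociation, were over 2-fold lower in 2 of 21, Fosb and Atf3, beside 8.4% of all compared genes. Their median log2 ratio was -0.23, and 0.02 with TMM, so no direction is given.

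Some genes of VEGF signalling and of valves were lower, while the junction genes as a list gave no direction. Of 12 compared genes of VEGF and lymphangiogenic signalling outside the rule, 5 were over 2-fold lower and 1 higher, with a median log2 ratio of -0.69 (-0.88 in blood endothelial cells) that was 0.13 when cells were thinned to 1000 UMIs. Kdr (VEGFR2) was at 642 and 274 CPM (ratio 0.426, 0.351 to 0.518), Nrp2, the VEGF-C co-receptor, at 389 and 191 CPM (0.492, 0.386 to 0.628), and the angiopoietin receptor gene Tek and the ephrin gene Efnb2 had ratios of 0.450 and 0.252. Angpt2, the angiopoietin of lymphatic and activated endothelium, was higher, at 74.1 and 225 CPM (3.04, 1.98 to 4.87), as in blood endothelial cells (139 and 774 CPM). Of 14 valve and collecting vessel genes, 4 were over 2-fold lower and 0 higher, again beside 8.4% and 5.86% of all compared genes: Acvrl1, the connexin gene Gja4 (0.391, 0.221 to 0.688), the polarity gene Celsr1 (0.467, 0.267 to 0.823) and Fn1. Foxc2, the valve transcription factor gene, had 12 and 26 UMIs and a ratio of 0.878 (0.427 to 1.91). Of 21 pan-endothelial and junction genes, 4 were over 2-fold lower and 0 higher, 8 had ratios above 1, and the median log2 ratio was -0.24, and 0.01 with TMM. Cldn5, the endothelial tight junction claudin, was at 683 and 290 CPM (0.425, 0.352 to 0.514), while Cdh5, a rule gene, was at 504 and 505 CPM.

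Within the lymphatic identity list, 2 of 25 compared genes were over 2-fold higher and 7 over 2-fold lower, with a median log2 ratio of -0.29. The higher ones were Nts and Cp, the copper-carrying ferroxidase ceruloplasmin (1248 and 2771 CPM, ratio 2.22, 2.00 to 2.48). The lower ones included Ccl21a, Nrp2, Ackr2, Sox18, a transcription factor gene that acts upstream of Prox1 (405 and 178 CPM, 0.439), and Thy1 (642 and 189 CPM, 0.294, 0.237 to 0.364). Maf and Nr2f2 (0.905, 0.737 to 1.12) had intervals that include 1. Other genes named for their deficit were Cavin2, a caveolar coat gene (1909 and 513 CPM, ratio 0.269, 0.237 to 0.305, and 465 and 102 CPM in blood endothelial cells), the cell cycle gene Ccnd1 (250 and 28.8 CPM), Prss23, a serine protease gene (1019 and 228 CPM, ratio 0.223, against 0.756 in blood endothelial cells), and Pcp4l1 (6.06-fold lower).

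The 12 compared ETS factor genes, the family of Elf1, gave 1 over 2-fold higher, 0 lower and a median log2 ratio of -0.04. The ETS core CCGGAA, searched on both strands, was found in windows of 17.5% of the genes over 2-fold lower and 15.8% of those over 2-fold higher, against 27.0% of all compared genes and 13.6% of all genes in the table. The proliferation list had 5 compared genes, none over 2-fold in either direction. The glucocorticoid (2 higher and 0 lower of 14), hypoxia (2 and 1 of 19), matrix (1 and 3 of 29), TGF-beta (1 and 2 of 14) and lipid (3 and 3 of 13) lists had medians between -0.05 and 0.20.

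**Figure D5:**
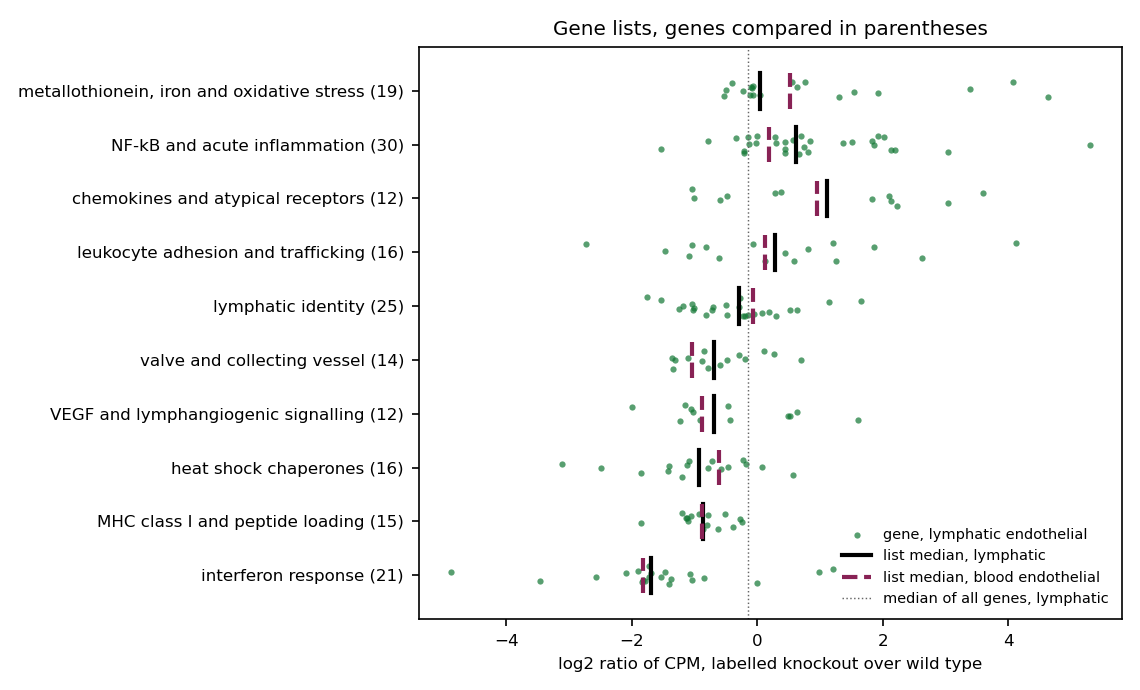
Log2 ratio of CPM, library labelled knockout over wild type, for each compared gene of 10 of the lists in lymphatic cells (points), with list medians in lymphatic and blood endothelial cells marked. The interferon list has the lowest median of the lists with at least 5 compared genes (-1.70), and the chemokine list the highest (1.11), with 4 of its 12 genes below 0.

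The share of lymphatic endothelial cells among kept barcodes was 1.39% (1.15 to 1.67) for the wild type and 1.92% (1.66 to 2.21) for the library labelled knockout, a ratio of 1.38 (1.09 to 1.76). Blood endothelial cells made up 1.35% and 1.40%, a ratio of 1.03 (0.797 to 1.34). Among endothelial cells the lymphatic share was 50.7% (43.9 to 57.4) and 57.9% (52.3 to 63.3), a ratio of 1.14 (0.9 to 1.46) whose interval includes 1. Without cells carrying at least 2 markers of another class 58 and 52 lymphatic cells were left, and the ratio of their share of kept cells was 0.748, so the direction of the first comparison turned on cells that carry RNA of other types. Shares in a dissociated tissue also depend on how well each cell type is released and on the numbers of all other cells.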

How the data were processed

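Per the labels' protocols, colon cells were captured on the Singleron GEXSCOPE platform and sequenced as 150 bp paired reads. Per the submitters' processing notes, cutadapt 1.17, STAR 2.6.1a, featureCounts 2.0.1 and the GRCm38 genome were used. The deposited matrices hold UMI counts per gene and barcode, unnormalized, as the authors made them; 0 columns were unused.

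Members were gated as stated and UMIs summed per library and class with Python 3.11.15, NumPy 2.4.6, SciPy 1.17.1 and pandas 2.3.3; Matplotlib 3.10.9 drew the figures. Ratios of CPM carry exact conditional binomial intervals and shares Clopper-Pearson intervals, at 95%. A count of 0 was taken as 3. Genes under 30 UMIs were not compared. No test between groups was run, since each is 1 library. The interval code was tested on simulated counts. The gene lists, members and rules were chosen with earlier results of these data known.

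Named genes were the 12 with the highest lower bound and the 12 with the lowest upper bound of the ratio, detected in 10% or more of the members of either library and at least 3 times the lowest mean UMIs per cell among gated classes of at least 40 cells, and the 12 and 8 most extreme between lymphatic and blood endothelium. Left out were rule genes, mitochondrial, ribosomal, haemoglobin, antigen receptor, sex-linked and unnamed genes and markers of other cells. List examples beyond the 2 highest and 2 lowest ratios, and the genes whose promoters are shown, were chosen after their values were seen. Other classes were gated by at least 3 of 6 markers.

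No doublet caller was run and no doublets were removed; the alternative without cells carrying 2 markers of another class bears on them. Further alternatives were at least 3 markers, thinning to 1000 UMIs, at most 10% mitochondrial UMIs, TMM factors (edgeR 4.0.16, R 4.3.3, for scaling only), the mean over cells, minimums of 10 and 100 UMIs and, chosen after seeing the data, members with no fibroblast marker UMI and blood endothelial cells without Flt4. Promoter windows are from RefSeq. Values of some genes that the rule names are not reported here.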

Additional observations from a re-analysis of the deposited data

Results flagged for a closer look

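Of 4190 genes compared in both endothelial types, 10 differed by over 2-fold between the libraries in opposite directions in lymphatic and blood endothelial cells, with both counting intervals off 1; the difference between the cell types was not tested, since each group is 1 library. The log2 ratio in lymphatic cells, library labelled knockout over wild type, was 4.12 for Madcam1 (-3.0 in blood endothelial cells), 3.91 for Il1rl1 (-1.62), 3.60 for Ackr1 (-1.02) and 2.71 for Ccl4 (-1.47). Most of the lymphatic counts of 3 of these lay in 1 cell: 40 of 43 UMIs of Madcam1, 28 of 30 of Ackr1 and 24 of 37 of Il1rl1 in the library labelled knockout, and for Ccl4 149 of 340. The value was 2.65 for Mmp10 (-3.37), 2.52 for Filip1 (-1.24), 1.63 for Rnd1 (-1.13) and 1.36 for Plpbp (-1.21). It was -1.04 for Gpihbp1 (2.36), the gene of the capillary lipoprotein lipase anchor, and -1.04 for Imp4 (1.28).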

How the results depend on the processing

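The ratio of lymphatic shares of kept cells, 1.38, was 0.748 without cells carrying 2 markers of another class. Genes over 2-fold higher in the library labelled knockout numbered 309, and 78 with thinning, 79 without cells carrying 2 markers of another class, 52 with no fibroblast marker UMI, 471 with TMM, 728 at 10 UMIs and 103 at 100 UMIs. Genes over 2-fold lower numbered 443, and under the same settings 94, 127, 207, 232, 1178 and 100. The number of genes compared fell with thinning to 1287 and in the stricter sets of cells to 1527 and 1261. Genes over 2-fold higher in lymphatic than blood endothelial cells numbered 506, and 218 with thinning, 213 without cells carrying 2 markers of another class and 253 at 100 UMIs; those over 2-fold lower numbered 440, and 186, 175 and 204. In cells with no fibroblast marker UMI the log2 ratios of Cemip and Il11 were -0.33 and that of Ifit2 0.035, all at counts of 0 to 3 in 1 library. The chemokine list's median there was -0.61 over the 6 genes that reached 30 UMIs, and -0.08 over all 12. The VEGF list's median was 0.13 with thinning. The cause was not tested. Of the 35 genes named between libraries, 0 were counted as reversed under TMM, at least 3 markers, at most 10% mitochondrial UMIs, thinning, the mean over cells and the removal of cells with 2 markers of another class. In cells with no fibroblast marker UMI 3 were. Only genes whose main interval excluded 1 could be counted as reversed, so a change of sign in others, such as Pdpn, was not counted. The 35 were the 12 and 12 genes chosen by their ratios in these data and a fixed set that includes rule genes, so the count is a description only. The 40 lymphatic against blood values kept their direction in each of the 6 settings run.

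No paired analysis was possible because each group has 1 library. The alternatives with no fibroblast marker UMI and without Flt4 in blood endothelial cells were chosen after seeing the data. With 23 cells of the library labelled knockout in the first, low genes are not readable there.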
